A study of Mus musculus with 18 samples.

Results

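Immediate early genes were followed across 18 RNA sequencing libraries of the mouse hybridoma E2-10HA, a line made by fusing a T cell with a tumour cell. The 10 genes form a list of names with no cut on measured values, drawn up with earlier results of these data known: Fos, Fosb, Fosl2, Jun, Junb, Egr1, Egr2, Nr4a1, Dusp1 and Ier2, out of 24391 genes in each of 2 tables. In the knockdown experiment, cells carried pLKO.1 with 1 hairpin against L3MBTL3 or with a scramble hairpin and were selected with puromycin (n = 3 libraries each). In the rescue, RBPJ-depleted cells carried pMY-Bio with Flag-tagged mouse RBPJ F261A/A284V, with Flag-tagged mouse RBPJ WT, or with no RBPJ (empty vector), each followed by an IRES and a blasticidin resistance gene, and were selected with blasticidin (n = 4 libraries each). RBPJ is the DNA-binding factor of the Notch pathway, and L3MBTL3 is a methyl-lysine-binding chromatin protein that interacts with it. No stimulus was named for any library, and the growth state of the cells at harvest was not tested. Only 1 hairpin and 1 cell line were used, and the RBPJ-depleted cells still held Rbpj RNA.

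Immediate early genes are switched on within minutes of a signal without new protein synthesis, and most of their RNAs decay fast. In T cells, signals from the antigen receptor reach them through the MAP kinases, which act on serum response factor and its partners and on CREB, and through calcium and NFAT. Fos and Jun family proteins pair to form AP-1, the EGR proteins are zinc finger factors, Nr4a1 encodes an orphan nuclear receptor, and Dusp1 encodes a phosphatase that switches MAP kinases off.

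The promoter windows of 4 members are printed because these genes lead the results below or hold one of the motifs searched. Each window spans 250 bases before to 50 bases after a RefSeq transcription start on GRCm38.p6, read 5′ to 3′ on the gene's strand. The windows of 8 members were searched (12 windows, 5 of them for Egr2); those of Egr1 and Ier2 were not used here. Motifs were searched on both strands, and capitals mark a match: the CArG box of serum response factor, the cAMP response element TGACGTCA, the AP-1 site TGANTCA and the core RBPJ site TGGGAA. The AP-1 site and the cAMP response element share their outer bases but differ in spacing, so no stretch matched both. Fosl2 lies at chr5:32136222-32136521 on the plus strand, Egr2 at chr10:67537619-67537918 on the plus strand, Dusp1 at chr17:26508423-26508722 on the minus strand and Jun at chr4:95052173-95052472 on the minus strand.
Fosl2: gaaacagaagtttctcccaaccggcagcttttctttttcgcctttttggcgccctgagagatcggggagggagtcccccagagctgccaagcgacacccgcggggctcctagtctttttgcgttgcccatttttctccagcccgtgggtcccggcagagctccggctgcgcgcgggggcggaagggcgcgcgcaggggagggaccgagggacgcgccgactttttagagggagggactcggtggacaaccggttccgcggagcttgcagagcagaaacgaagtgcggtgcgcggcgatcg
Egr2: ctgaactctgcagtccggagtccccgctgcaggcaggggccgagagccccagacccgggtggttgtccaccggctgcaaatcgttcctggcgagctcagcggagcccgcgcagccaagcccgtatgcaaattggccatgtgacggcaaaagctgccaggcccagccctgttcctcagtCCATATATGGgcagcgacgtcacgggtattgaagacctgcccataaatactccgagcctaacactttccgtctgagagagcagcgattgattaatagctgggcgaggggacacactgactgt
Dusp1: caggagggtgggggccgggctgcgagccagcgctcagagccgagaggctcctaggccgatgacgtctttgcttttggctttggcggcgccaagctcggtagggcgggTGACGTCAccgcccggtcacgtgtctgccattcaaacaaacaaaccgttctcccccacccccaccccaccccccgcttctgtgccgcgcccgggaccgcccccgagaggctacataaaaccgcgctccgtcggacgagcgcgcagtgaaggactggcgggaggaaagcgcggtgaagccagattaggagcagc
Jun: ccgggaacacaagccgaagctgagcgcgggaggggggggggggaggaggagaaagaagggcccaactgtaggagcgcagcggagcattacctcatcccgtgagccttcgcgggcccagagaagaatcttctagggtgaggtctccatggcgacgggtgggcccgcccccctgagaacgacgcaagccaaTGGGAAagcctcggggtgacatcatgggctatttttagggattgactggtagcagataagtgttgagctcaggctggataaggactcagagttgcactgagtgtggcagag
The Egr2 window held a CArG box whose first base lay at position -72 from the start, and 4 of the 5 Egr2 windows, which overlap in part, held one at positions -72 to -133; 1.63% of all 32841 promoter windows held one. The Dusp1 window held TGACGTCA at position -143 (1.79% of windows), and the Jun window held TGGGAA at position -61 (25.6% of windows). None of the 4 motifs was found in the windows of Fosl2, Fos, Fosb, Junb or Nr4a1, and TGANTCA, which 7.81% of windows hold, was in none of the 12 windows searched. These matches describe letters only, and binding was not measured.

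Values are gene counts divided by 1 size factor per library, called normalized counts here. Summed reads per library ran from 4882485 to 6129134 in the knockdown experiment, and in the rescue experiment from 3553505 to 4239479 in replicates 3 and 4 and from 5923799 to 7921533 in replicates 1 and 2. Replicates 3 and 4 of the rescue experiment stood apart from replicates 1 and 2 in all 3 groups, a divide that the labels do not name, and each group held both sides evenly. In 3 groups, a pair of libraries differed by less than the sampling noise: RBPJ F261A/A284V replicates 3 and 4, RBPJ WT replicates 1 and 2, and empty vector replicates 1 and 2. Each such pair was counted as 1 sample in the fits with merged libraries (n = 3 per group), which stand beside every member called in the rescue; the other fits hold all 4 libraries per group. The labels do not say that replicates were separate cultures, so p-values measure the spread between these libraries, which may be technical. L3mbtl3 had 394, 371 and 369.6 normalized counts in the libraries labelled L3MBTL3 shRNA, against 467, 447 and 352 in scramble libraries; scramble replicate 3 lay below all 3 of them, and the gene did not pass the test (log2 fold change -0.15, limma adjusted p = 0.402). Rbpj had 729, 686, 922 and 919 with RBPJ F261A/A284V, 644, 627, 803 and 818 with RBPJ WT, and 317, 317, 255 and 272 with the empty vector. Of 14 T cell markers in the tables, the CD3 chains, Cd247, Lck, Zap70, Lat and Thy1 were present in every library, at 125.0 or more, while Cd5, Cd8a and Cd8b1 stayed at 6.1 or less. Cd2 ran from 74.9 to 229.6, Cd28 from 149.0 to 395.7 and Cd4 from 9.8 to 200.2. Summed B cell, natural killer cell and stroma markers stayed at 7.61 or less. Summed red cell markers reached 28.46, and summed myeloid markers ran from 149 to 375.

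All 10 members were detected and passed the filter on low values in both experiments. Levels between genes are compared only per kilobase of merged exon. In scramble libraries, Ier2, which encodes a nuclear protein, averaged 410.0 normalized counts per kilobase and Junb 406, followed by Nr4a1 (270.0), Fosl2 (174), Fos (135), Dusp1 (130.0), Jun (90.4), Egr1 (51.7), Fosb (33.1) and Egr2 (11.6). Library ranges of neighbours in this order overlapped except between Junb and Nr4a1, Nr4a1 and Fosl2, and Fosb and Egr2. In L3MBTL3 shRNA libraries Fosl2, at 213 per kilobase, stood beside Nr4a1 at 207. Egr2 was lowest in every group of both experiments, at 5.9 to 11.6 per kilobase on average.

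The knockdown comparison asks which genes differ when the hairpin targets L3MBTL3. In libraries labelled L3MBTL3 shRNA, 8 of the 10 immediate early genes lay below the scramble library of the same number in all 3 pairs. That pattern was shown by 28.8% of genes tested. Fosl2 lay higher in all 3 pairs, as did 29.4% of genes, and Junb had no common direction. These directions follow the labels, which L3mbtl3 RNA in scramble replicate 3 went against. The gaps were largest for Egr1, Egr2 and Fos, at 0.538, 0.574 and 0.581 times the scramble level by the fitted fold. Without pairing, none of the 10 members passed the test, where 3.32% of all genes did. With libraries of the same replicate number paired, 7 genes fell and Fosl2 rose, where 8.71% of all genes fell and 13.5% rose.

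Fos, the founding AP-1 subunit, had normalized counts of 170.1, 116 and 289.9 in L3MBTL3 shRNA replicates 1 to 3, against 256, 270.2 and 425 in scramble replicates 1 to 3. The mean was 191.9 ± 89.1 in L3MBTL3 shRNA cells and 317 ± 94.1 in scramble cells (SD, n = 3 each). Within each group replicate 3 was highest, and the shRNA replicate 3 lay above 2 of the scramble libraries, so the groups overlapped. Each shRNA library nonetheless lay below the scramble library of its own number, at 0.666, 0.429 and 0.682 times its level. Fosb, a close relative of Fos, had 121, 113 and 193 in L3MBTL3 shRNA replicates 1 to 3, against 140.4, 206 and 273 in scramble replicates 1 to 3, with the shRNA library lower in each pair. Fosl2, which encodes the AP-1 subunit Fra-2, had 2130.0, 1838 and 2216 in L3MBTL3 shRNA replicates 1 to 3, against 1805, 1566 and 1683 in scramble replicates 1 to 3. Every shRNA library lay above every scramble library for Fosl2, and 18.1% of the 11586 genes tested were separated in that direction. The pairs stood at 1.18, 1.17 and 1.32 times the scramble level.

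Among the Jun genes, Jun had 189, 181 and 317 in L3MBTL3 shRNA replicates 1 to 3, against 213, 269 and 382 in scramble replicates 1 to 3. Its groups overlapped, and each pair was lower in the shRNA library. Junb, which can restrain the activity of Jun, had 860.3, 818 and 914 in L3MBTL3 shRNA replicates 1 to 3, against 853, 849 and 1099 in scramble replicates 1 to 3, with no common direction among the pairs. Reads over Jun and Junb cannot be parted with certainty from the genes Junos and Prdx2 on the opposite strand, although the kit was stranded, since the sources used here do not give the strand setting of the counting.

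Egr1, a zinc finger factor induced by the ERK pathway, had 96.1, 79.5 and 216 in L3MBTL3 shRNA replicates 1 to 3, against 172, 184 and 339 in scramble replicates 1 to 3. The shRNA library stood at 0.558, 0.432 and 0.637 times the scramble library of its number. Egr2, which limits T cell activation, had 20.2, 20.6 and 25.9 in L3MBTL3 shRNA replicates 1 to 3, against 36.5, 37.4 and 44.2 in scramble replicates 1 to 3. Every Egr2 shRNA library lay below every scramble library, as was so for 17.1% of genes tested, and the pair ratios were close together at 0.553, 0.551 and 0.586. The mean of Egr2 was 22.2 ± 3.2 in L3MBTL3 shRNA cells and 39.4 ± 4.25 in scramble cells (SD, n = 3 each).

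Nr4a1, often used as a reporter of antigen receptor signalling, had 621, 576 and 977 in L3MBTL3 shRNA replicates 1 to 3, against 845, 831 and 1164 in scramble replicates 1 to 3. Dusp1 had 260.5, 191 and 403 in L3MBTL3 shRNA replicates 1 to 3, against 300.4, 329.6 and 665 in scramble replicates 1 to 3. Its locus overlaps 4 other annotated genes, AC122252.4 and AC122252.1 on the same strand and Gm8225 and Ergic1 on the opposite strand. Ier2 had 555, 532 and 614 in L3MBTL3 shRNA replicates 1 to 3, against 603, 560.5 and 707 in scramble replicates 1 to 3. The groups of Nr4a1, Dusp1 and Ier2 overlapped, and each of the 3 genes was lower in all 3 shRNA libraries than in the scramble library of the same number. In all, 8 members were lower in every pair, a pattern shown by 28.8% of genes tested, and Fosl2 was higher in every pair, as were 29.4%.

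**Figure D1:**
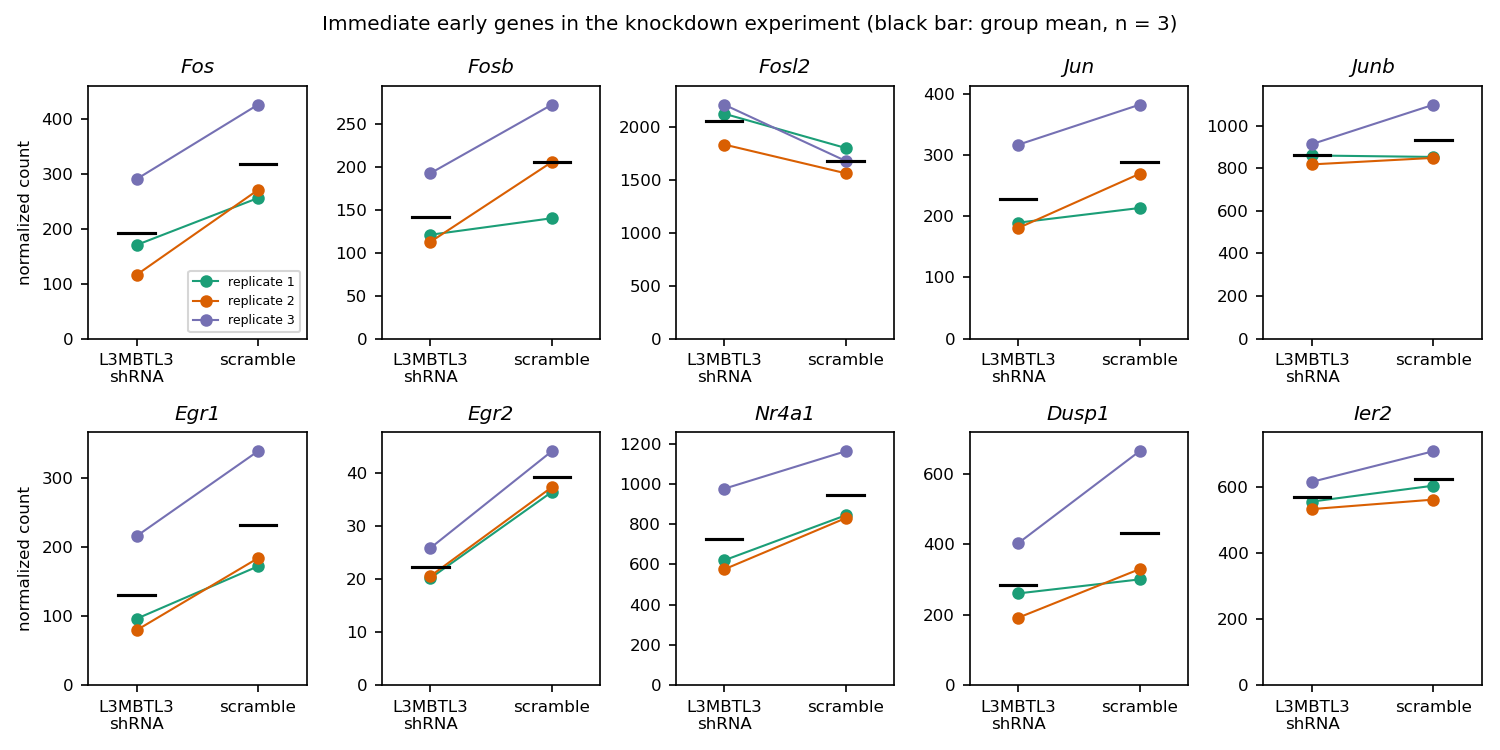
Normalized counts of the 10 immediate early genes in L3MBTL3 shRNA libraries (left) and scramble libraries (right); lines join libraries of the same replicate number and black bars mark group means (n = 3). Lines run upward to scramble for 8 genes in every pair, Fosl2 runs the other way, and replicate 3 is the highest library of both groups for every gene but Fosl2.

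With edgeR on the recovered reads 0 members were called, where 4.07% of genes passed. In limma without pairing, none of the 10 members passed an adjusted p of 0.05 over all genes, where 385 of 11586 genes (3.32%) did. Log2 fold changes were -0.80 (SE 0.207, adjusted p = 0.0685) for Egr2, 0.29 (SE 0.085, adjusted p = 0.0903) for Fosl2, -0.78 (SE 0.319, adjusted p = 0.171) for Fos and -0.89 (SE 0.384, adjusted p = 0.19) for Egr1. The median over the members was -0.47, against -0.01 over all genes tested. That all-gene count rests on single libraries: it was 0 without shRNA replicate 1, shRNA replicate 2 or scramble replicate 2, 5 without shRNA replicate 3, and 1029 without scramble replicate 3, while the member count was 0 each time. Under quantile scaling, Egr2 (-0.97, adjusted p = 0.0432) and Fosl2 (0.36, adjusted p = 0.0361) passed, where 7.85% of genes did.

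The 2 libraries of replicate 3 deviated together (r = 0.539), while pairing by number within replicates 1 and 2 was not settled. With the number as a block, 8 of the 10 members passed, where 22.2% of genes did. In that paired fit Egr1 (SE 0.124, adjusted p = 0.000705), Fos (SE 0.123, adjusted p = 0.00135), Nr4a1 (-0.41, SE 0.062, adjusted p = 0.00114), Dusp1 (-0.57, SE 0.103, adjusted p = 0.0028), Fosb (-0.52, SE 0.129, adjusted p = 0.014), Egr2 (SE 0.217, adjusted p = 0.021) and Jun (-0.34, SE 0.097, adjusted p = 0.0271) fell, against 8.71% of all genes. Fosl2 rose (adjusted p = 0.00378), against 13.5% of all genes. Junb (-0.10, adjusted p = 0.252) and Ier2 (-0.13, adjusted p = 0.122) did not pass. With trends in GC content and exon length also removed, 24.6% of genes passed and the same 7 members fell, but Fosl2 no longer passed (0.17, SE 0.077, adjusted p = 0.118). Without the replicate 2 pair, Egr2 (adjusted p = 0.0608), Fosb (adjusted p = 0.0967) and Jun (adjusted p = 0.222) were lost leaving 5 members called; without the replicate 1 pair, Egr2 was lost (adjusted p = 0.112), and without the replicate 3 pair the same 8 passed. Summed myeloid markers ran from 236 to 305 in L3MBTL3 shRNA libraries and from 333 to 375 in scramble libraries, with Cd14 at 0. Of the 6 listed, only 1, Cd68, passed the filter on low values in this experiment. The part of these markers in the results was not tested. In bulk RNA, fewer cells expressing a gene and less RNA per cell cannot be told apart.

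Levels also differed between replicate numbers, with replicate 3 highest in both groups for every member but Fosl2. The ratios were largest for Egr1, Fos and Dusp1. Replicate 3 stood above the mean of replicates 1 and 2 by 2.46 times in L3MBTL3 shRNA cells and 1.91 times in scramble cells for Egr1, by 2.03 and 1.62 times for Fos, and by 1.78 and 2.11 times for Dusp1. For Fosl2 the same ratios were 1.12 and 1.0. Over the 6 libraries, the level of each member followed the mean of the other 9 scaled members with Pearson's r between 0.713 and 0.989, except Fosl2 at -0.31. The 5 genes outside the list most like the mean of all 10 were Tnfsf9 (r = 0.993), Galc (0.993), Gimap9 (0.990), Zfp36 (0.990) and Zfp451 (0.990); 3.37% of 11576 genes reached r of 0.9, and all 6 libraries share the replicate 3 difference. Of these, Zfp36 encodes a protein that speeds the decay of AU-rich RNAs.

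Other genes of the same response were read from lists chosen with earlier results of these data known. Of 34 other immediate early genes tested, 1 rose and 0 fell without pairing, and 2 rose and 13 fell in the paired fit. Over all genes 3.32% passed without pairing, and 13.5% rose and 8.71% fell in the paired fit; the list's median log2 fold change was -0.09, against -0.01 over all genes tested. Btg2, an antiproliferative gene, was the one that rose without pairing, with 1066, 942 and 1112 in L3MBTL3 shRNA libraries, against 747, 697 and 810.0 in scramble libraries (log2 fold change 0.47, SE 0.08, limma adjusted p = 0.0348); in the paired fit Ier5l also rose (0.42, adjusted p = 0.00732). The genes that fell in the paired fit were Maff (-0.77), Nfil3 (-0.48), Klf2 (-0.42), Per1 (-0.37), Klf6 (-0.36), Zfp36l1 (-0.34), Ier3 (-0.31), Gadd45b (-0.30), Plk3 (-0.25), Zfp36 (-0.24), Csrnp1 (-0.22), Dusp4 (-0.21) and Btg1 (-0.18). Maff, a small Maf factor that can pair with AP-1 proteins, had 159.6, 190.4 and 369.6 in L3MBTL3 shRNA libraries, against 339.7, 293 and 558 in scramble libraries, with the same rise in replicate 3 of both groups.

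Among 34 upstream regulators tested, 2 rose and 1 fell without pairing, where 3.32% of all genes passed. Crem, a CREB family gene whose short products repress cAMP response elements, had 309.5, 271 and 366 in L3MBTL3 shRNA libraries, against 192, 207 and 190.5 in scramble libraries, with no overlap (log2 fold change 0.67, SE 0.115, adjusted p = 0.0348). Map2k4, a kinase that activates JNK, had 612, 608 and 588 in L3MBTL3 shRNA libraries, against 471, 471 and 445 in scramble libraries (0.38, SE 0.055, adjusted p = 0.0314). Atf1, a CREB family activator, had 329, 332 and 346 in L3MBTL3 shRNA libraries, against 394, 422 and 449 in scramble libraries (-0.33, SE 0.07, adjusted p = 0.0492). In the paired fit, where 13.5% of all genes rose and 8.71% fell, 8 rose, with Mkl2 (1.06), Rcan1 (0.71), Nfatc2 (0.30), Creb1 (0.22), Spred1 (0.22) and Mapk9 (0.18) beside Crem and Map2k4, and 3 fell, among them Atf1 and Elk4 (-0.21). Of 12 partners and corepressors tested, Rxra, the heterodimer partner of NR4A1, rose without pairing, with 168, 151 and 122 in L3MBTL3 shRNA libraries, against 91.7, 93.9 and 76.2 in scramble libraries (0.74, SE 0.157, adjusted p = 0.0491); in the paired fit Nfatc2 rose as well, and Mafg (-0.24), Mafk (-0.21) and Bach1 (-0.18) fell.

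Of 10 activation targets tested, 2 fell and none rose without pairing, where 3.32% of all genes passed. Cd69, an early activation marker, had 408, 444 and 521 in L3MBTL3 shRNA libraries, against 580.2, 613 and 634 in scramble libraries (log2 fold change -0.42, SE 0.091, adjusted p = 0.0497). Tnf had 259.5, 252 and 226 in L3MBTL3 shRNA libraries, against 320.0, 356 and 315 in scramble libraries (-0.43, SE 0.088, adjusted p = 0.0479). In the paired fit Gzmb (-0.62) and Nfkbia (-0.28) also fell, while Cd40lg (0.55) and Irf4 (0.94) rose. Of 10 heat shock genes tested, none passed without pairing, and Dnajb1 (-0.21), Hspd1 (-0.20) and Hsph1 (-0.20) fell in the paired fit; 22.2% of all genes passed that fit.

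The rescue comparisons ask what RBPJ WT, and RBPJ F261A/A284V, change in cells depleted of RBPJ. With RBPJ F261A/A284V, Fosl2 stood at 1.41 times the empty vector level and 1.37 times the RBPJ WT level by the fitted fold, on both sides of the replicate divide. Egr1 stood at 1.49 times the RBPJ WT level with RBPJ F261A/A284V. Without a term for the divide, no member passed in any of the 3 comparisons. With the term, Fosl2 passed against both other groups, and Egr1 passed against RBPJ WT. In that fit 0.693% of all genes passed against the empty vector and 5.12% against RBPJ WT. The other 8 members showed no difference that passed in any of the 3 comparisons, and no member passed between RBPJ WT and the empty vector. The 3 comparisons share libraries, so their values are given side by side and are not independent.

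Fosl2 had normalized counts in replicates 1 to 4 of 1390.1, 1262, 2953 and 2918 with RBPJ F261A/A284V, 1094, 1108, 1841 and 1945 with RBPJ WT and 980.1, 976, 2008 and 1994 with the empty vector. Within replicates 1 and 2, and again within replicates 3 and 4, both RBPJ F261A/A284V libraries lay above all libraries of the other groups. Across the divide the groups overlapped, and the share of all genes with this order within the sides is not given here. Without a term for the divide it did not pass (log2 fold change 0.49 against the empty vector and 0.45 against RBPJ WT, SE 0.361 each, limma adjusted p = 1.0 each). With that term the SE was 0.058, and Fosl2 rose against the empty vector (adjusted p = 8.87e-05, where 0.393% of genes rose) and against RBPJ WT (adjusted p = 2.87e-05, where 2.61% rose). With near-identical libraries merged, n = 3 per group, the values were 0.46 (SE 0.073, adjusted p = 0.00857, where 0.0941% of genes passed) and 0.46 (SE 0.073, adjusted p = 0.000732, where 1.96% did). Within replicates 3 and 4 they were 0.55 and 0.63, where 1.15% and 7.05% of genes passed. Within replicates 1 and 2 they were 0.44 (adjusted p = 0.00899) and 0.27 (adjusted p = 0.0374), where 0.128% and 1.63% did. The difference between the sides did not pass for the comparison with RBPJ WT (0.37, SE 0.085, adjusted p = 0.0566). Leaving out any 1 library, with the term kept, left Fosl2 past the threshold in both comparisons. Summed myeloid markers ran from 189.6 to 244 with RBPJ F261A/A284V, from 149 to 178 with RBPJ WT and from 186 to 219 with the empty vector. In limma with the term, Itgam (1.09, adjusted p = 0.00346) and Cd68 (0.47, adjusted p = 0.00895) rose with RBPJ F261A/A284V against RBPJ WT. There 5.12% of genes passed and Lyz2 did not (-0.17, adjusted p = 0.699). Itgam fell with RBPJ WT against the empty vector (-1.74, adjusted p = 2.6e-05), where 2.42% passed. The part of these markers in the rescue results was not tested.

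Egr1 had 72.1, 79.3, 111 and 101 with RBPJ F261A/A284V, 50.5, 55.8, 75.2 and 60.4 with RBPJ WT and 71.5, 43.7, 82.1 and 90.2 with the empty vector. Both RBPJ F261A/A284V libraries lay above both RBPJ WT libraries on each side of the divide. The share of all genes with that order is not given here, and across the divide these 2 groups overlapped. Empty vector replicate 1, at 71.5, lay close to the RBPJ F261A/A284V libraries of its side. Against RBPJ WT the log2 fold change was 0.57, which did not pass without the term (SE 0.229, adjusted p = 0.904) and passed with it (SE 0.136, adjusted p = 0.0139) and with near-identical libraries merged (0.59, SE 0.144, adjusted p = 0.0322). Within replicates 3 and 4 it was 0.65, and within replicates 1 and 2 it was 0.50, again without p-values because of the near-identical pairs. The call with the term was lost without RBPJ F261A/A284V replicate 3 (adjusted p = 0.0519) or RBPJ WT replicate 4 (adjusted p = 0.0548). Against the empty vector, Egr1 did not pass with the term (0.36, SE 0.136, adjusted p = 0.277). Egr2, its relative, had 16.9, 23.5, 26.2 and 30.9 with RBPJ F261A/A284V, 20.5, 20.9, 22.9 and 30.9 with RBPJ WT and 19.0, 16.4, 21.9 and 22.9 with the empty vector, and its libraries overlapped across the groups.

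**Figure D2:**
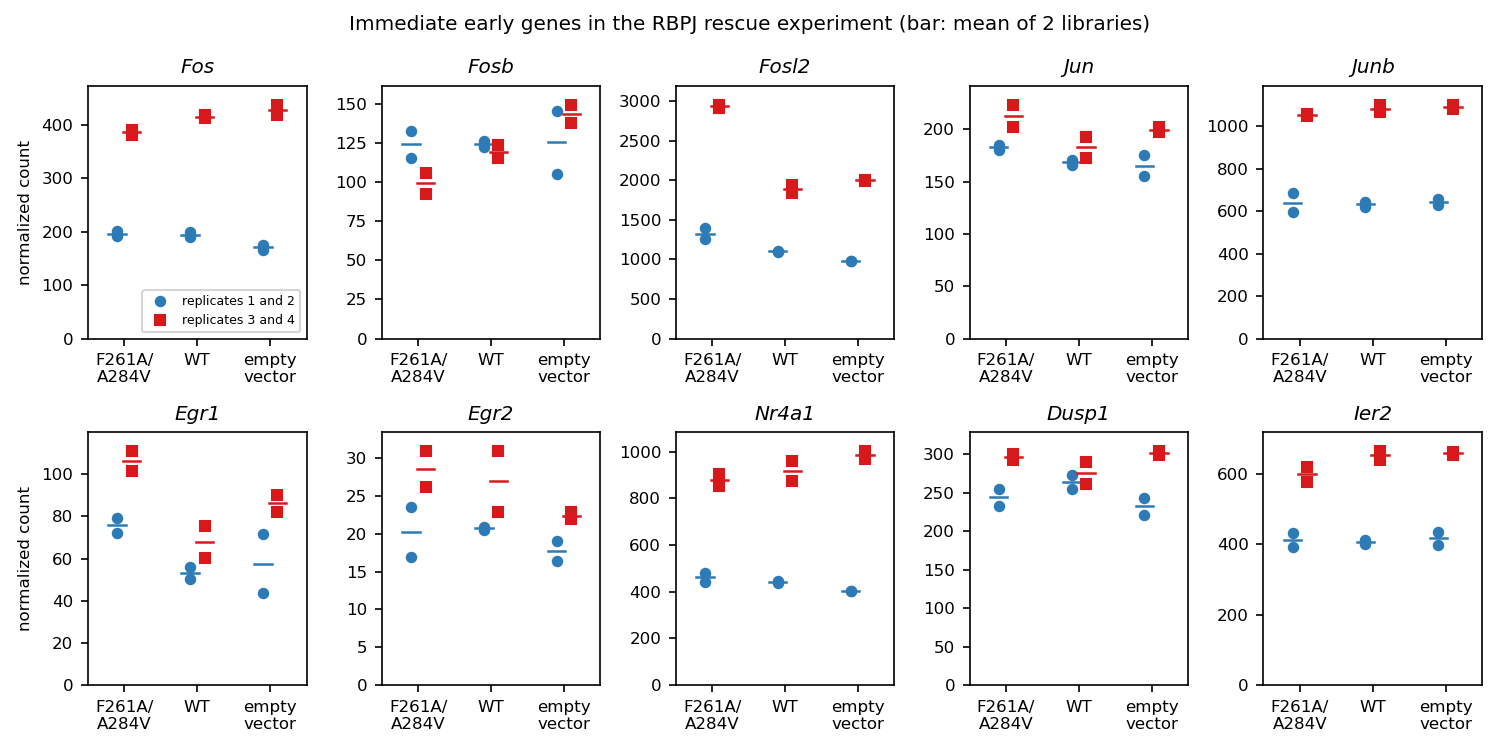
Normalized counts of the 10 immediate early genes with RBPJ F261A/A284V, RBPJ WT and the empty vector (left to right); circles are replicates 1 and 2, squares replicates 3 and 4, and bars the mean of each pair. Fosl2 is highest with RBPJ F261A/A284V on both sides of the divide, and Fos, Fosl2, Junb, Nr4a1 and Ier2 are higher in every library of replicates 3 and 4 than in any of replicates 1 and 2.

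Of the other AP-1 genes, Fos had 192, 201, 382 and 391 with RBPJ F261A/A284V, 189.7, 199.6, 413 and 419 with RBPJ WT and 175, 166, 438 and 419 with the empty vector. In replicates 1 and 2 the empty vector libraries were lowest, and in replicates 3 and 4 the RBPJ F261A/A284V libraries were. The difference between the sides did not pass for RBPJ F261A/A284V against the empty vector (-0.35, SE 0.107, adjusted p = 0.267). Fosb had 116, 133, 106 and 92.6 with RBPJ F261A/A284V, 123, 127, 116 and 124 with RBPJ WT and 146, 106, 138 and 149.8 with the empty vector, with its lowest value in RBPJ F261A/A284V replicate 4. Its log2 fold change against the empty vector, with the term, was -0.27 (SE 0.114, adjusted p = 0.35). Jun had 185, 180.1, 202 and 223 with RBPJ F261A/A284V, 171, 166, 192 and 173 with RBPJ WT and 176, 155, 197 and 202 with the empty vector, and against RBPJ WT it stood at 0.17 (SE 0.071, adjusted p = 0.186). Junb had 685, 595, 1056 and 1051 with RBPJ F261A/A284V, 645, 622, 1066 and 1102 with RBPJ WT and 631, 658, 1080.1 and 1102 with the empty vector, and its 3 groups overlapped.

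Nr4a1 had 479.7, 442, 852 and 904 with RBPJ F261A/A284V, 444, 435, 960.4 and 873 with RBPJ WT and 401, 402, 1002 and 967 with the empty vector. In replicates 1 and 2 all RBPJ F261A/A284V and RBPJ WT libraries lay above the empty vector libraries, and in replicates 3 and 4 the order ran the other way. That difference between the sides did not pass (RBPJ F261A/A284V against the empty vector: -0.36, SE 0.09, limma adjusted p = 0.149). None of the 10 members passed it in limma in any comparison, where 0.128%, 0.573% and 0.0171% of genes did (RBPJ F261A/A284V against the empty vector, RBPJ F261A/A284V against RBPJ WT, RBPJ WT against the empty vector). In the same order, 3, 1 and 4 members had an unadjusted p under 0.05, as did 1187, 1522 and 370 of all 11691 genes. Dusp1 had 233, 254, 300.3 and 292 with RBPJ F261A/A284V, 255, 272, 261.1 and 289.6 with RBPJ WT and 243, 221, 304 and 299.6 with the empty vector. Ier2 had 432, 392, 577 and 620.3 with RBPJ F261A/A284V, 413, 399.8, 665 and 641 with RBPJ WT and 399, 435, 664 and 654 with the empty vector. The groups overlapped for both genes.

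Without a term for the divide, limma called 0 members in each rescue comparison, where 0.0171% of genes passed for RBPJ F261A/A284V against the empty vector, 0.316% for RBPJ F261A/A284V against RBPJ WT and 0.248% for RBPJ WT against the empty vector. The edgeR fit on the recovered reads called 0 members in each, where 0.0171%, 0.248% and 0.24% of genes passed. With the term, 1, 2 and 0 members passed, where 0.693%, 5.12% and 2.42% of genes did. Blocking on the replicate number gave the same member counts, where 0.65%, 4.74% and 2.23% of genes did. Between RBPJ WT and the empty vector, the fitted log2 fold changes of the 10 members lay between -0.21 (Egr1, SE 0.136) and 0.23 (Egr2, SE 0.189). The all-gene counts with the term moved with single libraries, over 30 to 160 for RBPJ F261A/A284V against the empty vector (81 with all libraries), lowest without RBPJ F261A/A284V replicate 4 and highest without RBPJ F261A/A284V replicate 1. No member separated the 4 libraries of one group from the 4 of another across the divide, as 1.92%, 3.7% and 3.34% of genes did.

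**Figure D3:**
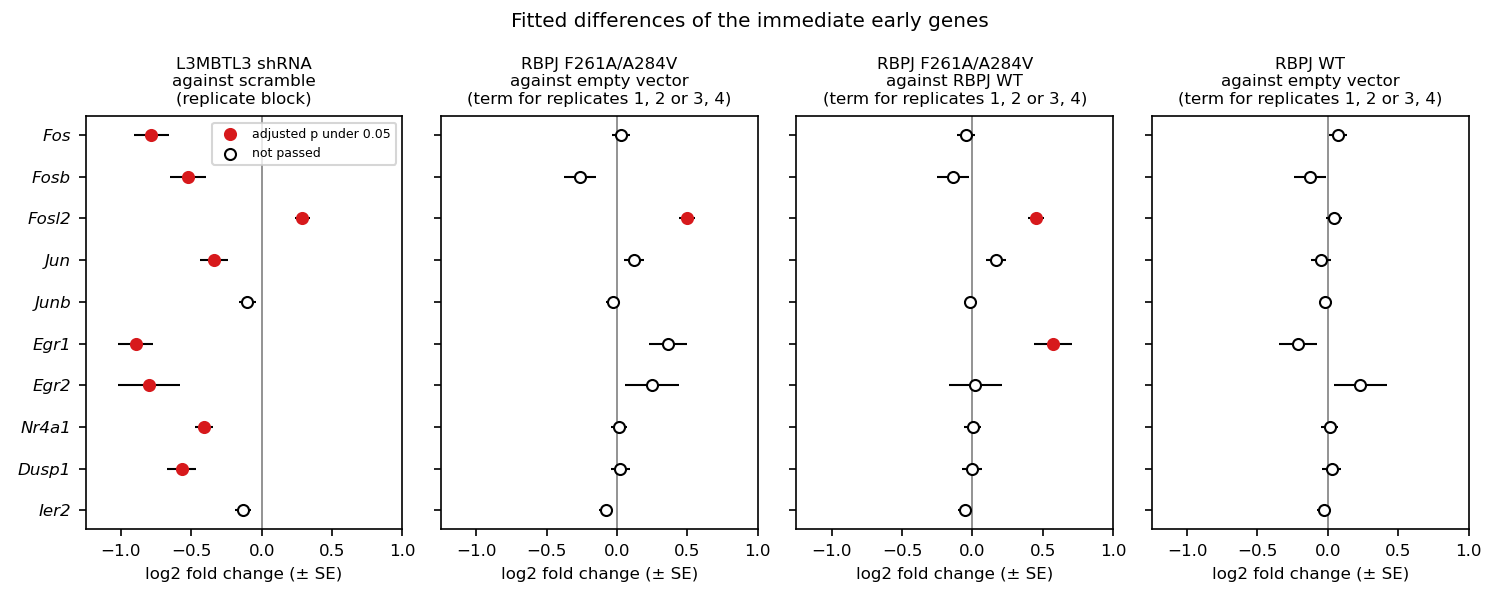
Log2 fold changes (± SE) of the 10 immediate early genes in the 4 comparisons, with the replicate number as a block for the knockdown and a term for replicates 1, 2 or 3, 4 for the rescue; filled points passed an adjusted p of 0.05. In the knockdown 7 genes lie left of 0 and Fosl2 right of it among the filled points; in the rescue only Fosl2 (0.49 and 0.45) and Egr1 (0.57) are filled.

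For Fos, Nr4a1, Fosl2, Junb and Ier2 the divide between replicates 3 and 4 and replicates 1 and 2 was wider than their fitted difference between any RBPJ groups. It was found in these data, so its values are a description without a test. Replicates 3 and 4 stood above replicates 1 and 2 by 2.19 times for Fos, 2.13 for Nr4a1, 1.98 for Fosl2, 1.68 for Junb and 1.55 for Ier2. For these 5 genes the 6 libraries of one side lay wholly above the 6 of the other, as did 26.2% of 11691 genes tested. The ranges were 382 to 438 in replicates 3 and 4 and 166 to 201 in replicates 1 and 2 for Fos, and 852 to 1002 in replicates 3 and 4 and 401 to 479.7 in replicates 1 and 2 for Nr4a1. Fos and Nr4a1 were 2 of only 26 genes (0.222%) that were at least 2 times as high, and 5 of 10 members against 6.44% of all genes were at least 1.5 times as high. Egr1 (1.39), Egr2 (1.31), Dusp1 (1.18), Jun (1.15) and Fosb (0.962) overlapped between the sides. The median log2 difference was 0.55 over the members and -0.02 over all genes tested. Reads per library were fewer on the side of replicates 3 and 4, and the part of depth in these differences was not tested.

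**Figure D4:**
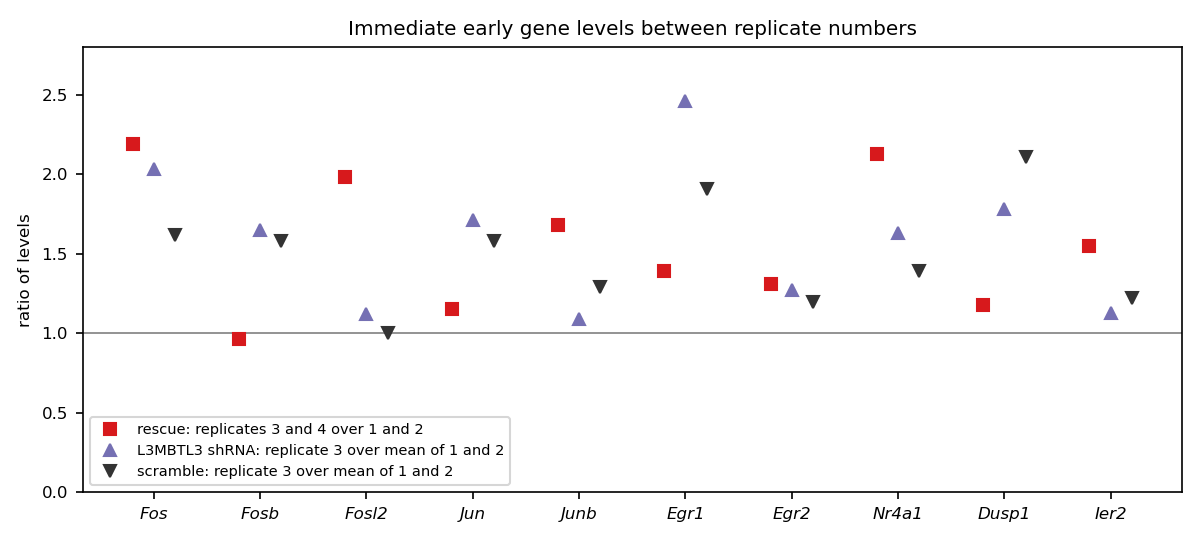
Ratios of levels between replicate numbers for each immediate early gene: replicates 3 and 4 over replicates 1 and 2 in the rescue (squares), and replicate 3 over the mean of replicates 1 and 2 in L3MBTL3 shRNA (upward triangles) and scramble libraries (downward triangles). Fos and Nr4a1 are raised in all 3 series, while Fosb and Jun are raised in the knockdown (1.58 to 1.71) and near 1 in the rescue (0.962 and 1.15).

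The members that were high in replicate 3 of the knockdown were not all those high in replicates 3 and 4 of the rescue. Fosl2 stood at 1.98 in the rescue and at 1.12 and 1.0 in L3MBTL3 shRNA and scramble cells, whereas Fosb stood at 0.962 in the rescue and at 1.65 and 1.58 there. Over the 12 rescue libraries, 9 members followed the mean of the other scaled members with Pearson's r between 0.712 and 0.959, and Fosb did not (-0.15). The 5 genes outside the list most like the mean of all 10 were Auh (r = 0.974), Ifngr1 (0.968), Wbp2 (0.965), Pcyt2 (0.963) and Setdb1 (0.963), and 14.0% of 11681 genes reached r of 0.9; the libraries share the divide.

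Other genes of the response gave few calls in the rescue, and those named here passed only with the term unless stated. Of 34 other immediate early genes tested, 3 rose and 0 fell with RBPJ F261A/A284V against the empty vector: Ier5l (0.50), Rgs2 (0.39) and Sik1 (0.27). With the term, 0.393% of all genes rose in that comparison. Against RBPJ WT, Ier5l (0.42), Rgs2 (0.30), Sik1 (0.21) and Ier5 (0.18) rose and Dusp4 (-0.19) fell, where 5.12% of all genes passed. Rgs2, a brake on G protein signalling, had 462, 416, 879 and 926 with RBPJ F261A/A284V, 418, 383, 619 and 690.1 with RBPJ WT and 326, 348, 654 and 712 with the empty vector, and it was the one of these that also passed with near-identical libraries merged, against RBPJ WT only (0.31, adjusted p = 0.0332). Sik1, a salt-inducible kinase and CREB target, had 808, 738, 1469 and 1473 with RBPJ F261A/A284V, 708, 711, 1236 and 1148 with RBPJ WT and 656, 641, 1217 and 1186 with the empty vector. With RBPJ WT against the empty vector, Nr4a2 (0.56), the relative of Nr4a1, and Dusp4 (0.17) rose, where 2.42% of all genes passed.

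Of 34 upstream regulators tested, Crem rose with RBPJ F261A/A284V against the empty vector (log2 fold change 0.37, SE 0.069, limma adjusted p = 0.00896) and against RBPJ WT (0.31, SE 0.069, limma adjusted p = 0.0081), and none fell. With the term, 0.693% of all genes passed in the first of these comparisons, 5.12% in the second and 2.42% between RBPJ WT and the empty vector. Crem had 219, 235, 288 and 287 with RBPJ F261A/A284V, 200.0, 207, 197 and 216 with RBPJ WT and 183, 184, 214 and 209 with the empty vector; it did not pass with near-identical libraries merged. Between RBPJ WT and the empty vector no regulator passed, the largest values being those of Rcan1 (-0.23, SE 0.192, adjusted p = 1.0) and Mkl2 (-0.14, SE 0.424, adjusted p = 1.0) without the term. Of 12 partners tested, Rxra rose with RBPJ F261A/A284V against RBPJ WT (0.32) and fell with RBPJ WT against the empty vector (-0.34), and Bach1 rose in that last comparison (0.17, adjusted p = 0.0484), a call lost with the replicate number as a block (adjusted p = 0.0699); against the empty vector none passed with RBPJ F261A/A284V, with Jdp2 at 0.14 and Mafg at 0.12.

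Gzmb, which encodes granzyme B, differed most among the 11 activation targets tested, with 206, 209, 482 and 454 with RBPJ F261A/A284V, 41.6, 39.3, 34.4 and 42.2 with RBPJ WT and 206, 204, 344 and 347 with the empty vector. Gzmb rose with RBPJ F261A/A284V against RBPJ WT (log2 fold change 2.96, SE 0.298, limma adjusted p = 0.000583) and fell with RBPJ WT against the empty vector (-2.73, SE 0.298, limma adjusted p = 0.00111), both without the term. In those fits 0.316% and 0.248% of all genes passed. With the term, Irf4 (0.66), Nfkbiz (0.41), Tnfrsf9 (0.40) and Tnfaip3 (0.27) also rose against RBPJ WT, where 5.12% of all genes passed. Tnfrsf9 (0.26) rose with RBPJ F261A/A284V against the empty vector, where 0.693% did. Il2ra (-0.72) and Irf4 (-0.56) fell with RBPJ WT against the empty vector, where 2.42% did. With a replicate block Il2ra (adjusted p = 0.0524) and Irf4 (adjusted p = 0.0537) no longer passed in that last comparison. None of 11 heat shock genes passed in any of the 3 comparisons, with or without the term; the largest values were those of Hspa1b (-0.51, SE 0.314) and Dnajb1 (-0.12, SE 0.107) with RBPJ F261A/A284V against the empty vector, Hspa1b (-0.29) and Hsp90ab1 (0.15) against RBPJ WT, and Hspa1b (-0.22) and Hsph1 (-0.11) with RBPJ WT against the empty vector.

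Fosl2, Crem and Rxra can be set side by side across the experiments. Fosl2 stood at 0.29 with L3MBTL3 shRNA against scramble and at 0.49 with RBPJ F261A/A284V against the empty vector, Crem at 0.67 and 0.37, and Rxra at 0.74 and -0.02. Egr1 stood at -0.89 and 0.36 in those comparisons and Egr2 at -0.80 and 0.25. The experiments used different libraries and were normalized separately, and whether these fold changes differ was not tested.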

How the data were processed

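Stranded total RNA libraries depleted of ribosomal RNA were sequenced, per the labels' protocols. The submitters' processing notes name TopHat2 2.1.1, DESeq2 1.24.0 and the build mm9, with the counting tool not given in the sources used here. Values deposited by the authors are gene counts divided by 1 size factor per library (a signal that is not whole); 100.0% of values were whole reads, within 0.1 read, once that factor was recovered. Coordinates are those of RefSeq on GRCm38.p6, and GC content and exon length came from GENCODE, matched by symbol for 96% of tested genes.

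Genes at 10 or more in at least 3 knockdown or 4 rescue libraries were tested, 11586 and 11691. The main test was limma 3.58.1 (trend) on log2(value + 1) with group as the term, so fold changes of low genes are understated, with Benjamini-Hochberg adjustment over all genes tested and a threshold of 0.05. Each experiment had its own fit. Alternatives were edgeR 4.0.16 (quasi-likelihood) on recovered reads, pseudocount 0.5, no filter, quantile scaling, a replicate block, a term for the replicate divide, near-identical libraries merged, each side of the divide alone, GC and length trends removed, and libraries left out. Same-numbered knockdown libraries correlated in their deviations from group means (r from 0.24 to 0.539, against -0.469 to 0.332 for other numbers). The 2 ranges overlapped, since scramble replicate 2 went with shRNA replicate 1 at 0.332 and with shRNA replicate 2 at 0.24. These values therefore do not settle whether replicates 1 and 2 are paired by number. In the rescue, same-numbered libraries correlated no more (0.55 to 0.815) than other libraries of their side (0.559 to 0.832). All members were named in every comparison; of each other list, the genes past a test, or else the 2 with the largest change. The values of 1 listed gene are not reported here. The members, lists and tests were chosen with earlier results of these data known. Counting error limits low genes such as Egr2.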

Additional observations from a re-analysis of the deposited data

How the results depend on the processing

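In the knockdown comparison, the count of members called (0) became 2 under quantile scaling, 8 with the replicate block and 7 with the block and GC and length trends removed, and the share of all genes called (3.32%) became 7.85%, 22.2% and 24.6%. Leaving out libraries gave 5 to 8 members and 13.2% to 27.4% of genes with the block, and 0 members and 0 to 8.88% of genes without it. In the rescue, values follow in the order RBPJ F261A/A284V against the empty vector, RBPJ F261A/A284V against RBPJ WT and RBPJ WT against the empty vector. With the replicate block 1, 2 and 0 members were called, as with the term for the replicate divide, among 0.65%, 4.74% and 2.23% of genes. Of the other listed genes, the block lost the calls of Bach1, Il2ra and Irf4 for RBPJ WT against the empty vector and gained Cd28 for RBPJ F261A/A284V against the empty vector (adjusted p = 0.0434) and Dusp5 against RBPJ WT (adjusted p = 0.041). With the term the member counts were 1, 2 and 0 among 0.693%, 5.12% and 2.42% of genes, with near-identical libraries merged 1, 2 and 0 among 0.0941%, 1.96% and 1.52%, with GC and length trends removed 1, 2 and 0 among 1.18%, 6.91% and 3.1%, within replicates 3 and 4 alone 1, 2 and 0 among 1.15%, 7.05% and 1.26%, and within replicates 1 and 2 alone 1, 1 and 0 among 0.128%, 1.63% and 1.0%. Without a filter, the share for RBPJ F261A/A284V against the empty vector was 0.0313%, against 0.0171% with it. Leaving out 1 library gave 0.0171% to 0.0257%, 0.171% to 0.316% and 0.145% to 0.18% of genes and 0 members without the term, and 0.257% to 1.37%, 2.98% to 9.73% and 1.53% to 2.15% of genes with it, with 1, 1 to 2 and 0 members.

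Uncalled log2 fold changes near 0 changed sign, and the cause was not tested. For RBPJ F261A/A284V against the empty vector these were Fos (-0.15 within replicates 3 and 4, -0.03 in edgeR), Nr4a1 (-0.17 and -0.05 in the same order), Dusp1 (-0.03 within replicates 3 and 4, -0.009 merged) and Fosb (0.0006 within replicates 1 and 2). For RBPJ F261A/A284V against RBPJ WT they were Fos (0.01), Junb (0.01), Egr2 (-0.05) and Ier2 (0.02) within replicates 1 and 2, Nr4a1 (-0.06 within replicates 3 and 4, -0.02 in edgeR) and Dusp1 (0.11 within replicates 3 and 4, 0.02 merged). For RBPJ WT against the empty vector they were Fos (-0.04), Fosl2 (-0.08), Nr4a1 (-0.1) and Dusp1 (-0.13) within replicates 3 and 4, Fosb (0.008) and Jun (0.03) within replicates 1 and 2, Junb (0.02) and Ier2 (0.02) with GC and length trends removed, Nr4a1 in edgeR (-0.03) and merged (-0.03), and Dusp1 merged (-0.03).

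Leaving out libraries also turned the sign of some, over these ranges. For L3MBTL3 shRNA against scramble, Junb (-0.17 to 0.02). For RBPJ F261A/A284V against the empty vector, Fos (-0.21 to 0.26), Junb (-0.17 to 0.12), Nr4a1 (-0.2 to 0.24), Dusp1 (-0.06 to 0.09), Ier2 (-0.21 to 0.04). For RBPJ F261A/A284V against RBPJ WT, Fos (-0.24 to 0.14), Junb (-0.15 to 0.14), Egr2 (-0.1 to 0.18), Nr4a1 (-0.18 to 0.2), Dusp1 (-0.07 to 0.06), Ier2 (-0.18 to 0.07). For RBPJ WT against the empty vector, Fos (-0.16 to 0.3), Fosl2 (-0.13 to 0.22), Jun (-0.13 to 0.001), Junb (-0.15 to 0.12), Nr4a1 (-0.2 to 0.24), Dusp1 (-0.06 to 0.09), Ier2 (-0.16 to 0.1).

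Egr2, at 16.4 to 44.2 normalized counts, is the member whose precision the depth limits most; 1 hairpin, 1 cell line and 3 samples per group limit the rest.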
